A study of Mus musculus with 2 samples.

Results

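The sensory cluster consists of the miRNA genes Mir183, Mir96 and Mir182, which lie together on chromosome 6. They were found by matching the Ensembl identifiers of the count tables, without version, to these symbols in the GENCODE annotation. This gave 3 genes of the 1973 in each table. Small RNAs of B6NCrl mouse embryos had been sequenced from total RNA of the neural tube at embryonic day 14.5. The 2 libraries formed 1 group without a treatment or an altered allele. Replicate 1 came from pup 1 of dam 1 and replicate 2 from pup 1 of dam 2. The labels name a single neural tube per sample but give its sex as pooled, and which adjoining tissues the dissection kept is not given in the sources used here. The genes were selected on their counts in these libraries, with the difference between the libraries already known, so that difference is described below without a test.

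The cluster is transcribed as a shared primary RNA, from which Drosha and Dicer cut the separate hairpins and mature miRNAs. Each mature miRNA then guides Argonaute to messenger RNAs that pair with its seed, the bases near its 5′ end. The cluster is known from sensory cells, among them photoreceptors, hair cells of the inner ear and neurons of sensory ganglia, and changes in the seed of miR-96 cause progressive hearing loss in mice and people.

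The mature 5′ arms are shown because the 3 genes differ by few bases in the part that selects targets. They are the RefSeq sequences of build GRCm38.p6, 5′ to 3′, with the seed (bases 2 to 8) in capitals.
miR-183-5p: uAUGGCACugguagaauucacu
miR-96-5p: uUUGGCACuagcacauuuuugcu
miR-182-5p: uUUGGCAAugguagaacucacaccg
Positions in the following differences are counted from 1 at the 5′ end of the miRNA named first. The seeds of miR-182-5p and miR-96-5p were identical at 6 of 7 bases and differed by A8C. The seeds of miR-96-5p and miR-183-5p were also identical at 6 of 7 bases and differed by U2A. Those of miR-182-5p and miR-183-5p differed by both U2A and A8C, so no seed was shared within the cluster. The order of likeness was another one outside the seed. With the 5′ ends aligned and no gap, miR-182-5p and miR-183-5p were identical at 12 of 14 bases after the seed. The corresponding figure was 6 of 14 for miR-96-5p and miR-183-5p and 5 of 15 for miR-182-5p and miR-96-5p. A perfect match to the seed in a target reads GTGCCAT for miR-183-5p, GTGCCAA for miR-96-5p and TTGCCAA for miR-182-5p.

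Among the other miRNAs of the RefSeq table, only miR-1271-5p carried the seed of any of these arms, that of miR-96-5p.
miR-1271-5p: cUUGGCACcugguaagcacuca
Its gene, listed as Gm24195 at chr13:54578113-54578249, had 0 counts in each library. At the depth of replicate 1 this allows a level of 0.946 CPM, and at that of replicate 2 a level of 0.817 CPM. CPM is a gene's count per 1000000 sense-strand counts on miRNA genes, and the limit is that of 3 counts. Of the genes found to carry the seed of miR-96-5p, Mir96 alone had counts.

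The hairpins show what each gene count covers. Both annotated mature arms are in capitals, and a read from either arm adds to the same count.
Mir183: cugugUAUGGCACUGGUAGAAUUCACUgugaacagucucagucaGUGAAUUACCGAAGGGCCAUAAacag
Mir96: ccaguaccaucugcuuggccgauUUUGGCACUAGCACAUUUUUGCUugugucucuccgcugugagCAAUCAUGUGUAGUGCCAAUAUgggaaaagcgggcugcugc
Mir182: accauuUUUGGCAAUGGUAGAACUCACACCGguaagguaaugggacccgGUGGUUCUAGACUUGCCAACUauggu
The longest run that any of these hairpins shared with one of the 1004 others in the table was 10 bases. This bears on the counts, because reads at several positions were counted for no gene, which left out 32.4% of reads in replicate 1 and 33.3% in replicate 2. For comparison, 132 of the 1005 hairpins (13.1%) shared a run of 20 bases with another. Only hairpins were compared, not the rest of the genome.

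All 3 genes lie on the minus strand within 3820 bases. Mir183 (ENSMUSG00000065619.2) is at chr6:30169668-30169737, Mir96 (ENSMUSG00000065586.1) at chr6:30169446-30169551 and Mir182 (ENSMUSG00000076361.1) at chr6:30165918-30165992. In the direction of transcription Mir183 comes first. Mir96 follows after 116 bases, and Mir182 after a further 3453 bases. No other annotated gene overlaps this stretch on either strand, so the hairpins are intergenic in this annotation. The noncoding RNA gene Rncr4, known from the retina, starts 3155 bases upstream of Mir183 on the opposite strand. The closest protein-coding genes are Nrf1, which encodes a transcription factor and ends 12459 bases beyond Mir182, and Ube2h, which encodes a ubiquitin-conjugating enzyme and lies 41551 bases beyond Mir183.

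The tables held 3172235 sense-strand counts for replicate 1 and 3671915 for replicate 2. Markers of the labelled tissue were present. At least 10 counts in a library were found for 6 of 6 miRNA genes of the Hox loci, which pattern the body axis, and for 12 of 13 neuronal genes. Of all 1973 genes, 360 reached this count. Among markers of other tissues it was reached by 1 of 5 muscle genes, 7 of 8 mesenchymal and cartilage genes and 4 of 4 endocrine genes. Reaching this count therefore does not by itself mark the labelled tissue. The neuronal copies Mir124a-1 (21 and 23 counts), Mir124a-2 (4 and 13) and Mir124a-3 (7 and 5) were low, and reads that fit several copies were not counted. Values below are counts or CPM in each library. Intervals are exact 95% binomial intervals and cover the counting error of reads only, with no spread between litters. No molecular identifiers are named in the labels, so repeated reads of the same molecule could not be told apart. The intervals may therefore be too narrow.

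The cluster was present in both libraries and was much higher in replicate 2. Its genes together held 6690 counts in replicate 1, or 0.211% of all miRNA counts (95% interval 0.206 to 0.216). They held 55262 counts in replicate 2, or 1.505% (95% interval 1.49 to 1.52). The mean was 0.858% ± 0.915 (SD, n = 2), an SD larger than the mean. In a bulk tissue, fewer cells of a type and less RNA per cell cannot be told apart.

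Mir182, the most abundant gene of the cluster, had 3844 counts in replicate 1, or 1212 CPM (95% interval 1174 to 1251). In replicate 2 it had 33631 counts, or 9159 CPM (95% interval 9062 to 9257). Its place among all miRNA genes went from rank 75 to rank 18. Mir183 stood at 2029 counts and 640 CPM (95% interval 612 to 668) in replicate 1, against 14170 counts and 3859 CPM (95% interval 3796 to 3923) in replicate 2. It ranked 97 in the first of these libraries and 38 in the second. Mir96, whose seed carries the hearing-loss changes, had 817 counts and 258 CPM (95% interval 240 to 276) in replicate 1. It had 7461 counts and 2032 CPM (95% interval 1986 to 2079) in replicate 2, with ranks of 140 and 63. The intervals of the 2 libraries lay apart for each of these genes, but they cover counting error only and are narrow at this depth. How many of all genes lay apart in this way was not counted, so it is not read as particular to the cluster.

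**Figure D1:**
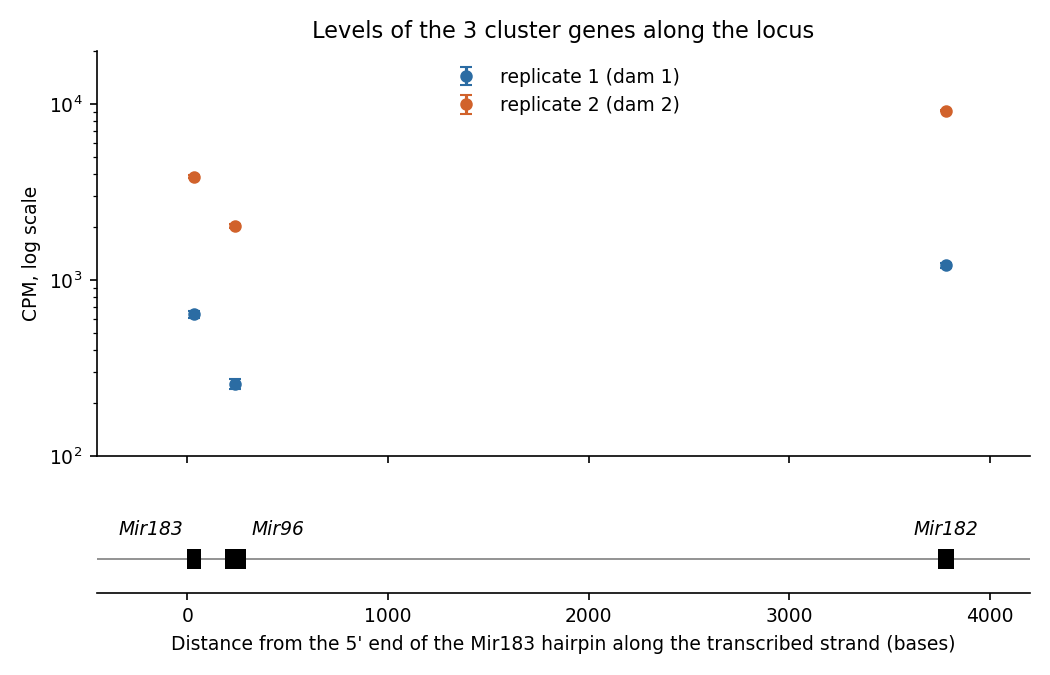
CPM (log axis) of Mir183, Mir96 and Mir182 in each library, drawn above the hairpins to scale, with distance in bases from the 5′ end of the Mir183 hairpin on the horizontal axis. Bars are exact 95% intervals, mostly smaller than the points. All 3 genes were higher in replicate 2, and the order Mir182, Mir183, Mir96 was the same in both libraries.

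The order of levels was Mir182, Mir183, Mir96 in each library, and within a library the intervals did not overlap. A read of a mature miRNA spans it whole, so counts were not divided by length. Per base of hairpin, with hairpins of 75, 70 and 106 bases, the mean levels kept that order at 69.1, 32.1 and 10.8 CPM per base. Over both libraries the means were 5185 ± 5620 CPM for Mir182, 2249 ± 2276 CPM for Mir183 and 1145 ± 1255 CPM for Mir96 (SD, n = 2). These SDs hold the difference between the libraries that all 3 genes share, so they do not measure differences between the genes. Compared within each library, Mir182 had 1.89 and 2.37 counts per count of Mir183 in replicates 1 and 2. Mir183 had 2.48 and 1.90 counts per count of Mir96.

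The genes nearest in mean level to each cluster gene had smaller SDs. With n = 2 an SD restates the difference between the libraries, which was known when the cluster was selected. Just above and below Mir182 were Mir181d, at 5257 ± 130 CPM, and Mir30d, at 5008 ± 80.9 CPM. Just above and below Mir183 were Mir652, at 2395 ± 547 CPM, and Mir219a-2, the oligodendrocyte miRNA gene, at 2232 ± 202 CPM. Mir96 lay between Mir125b-1, at 1210 ± 10.8 CPM, and Mir138-1, a neuronal miRNA gene, at 1112 ± 367 CPM. Each of these 6 neighbours had a smaller SD than the cluster gene beside it (n = 2). Mir143, somewhat further from Mir183 in level, stood at 2686 ± 2259 CPM, an SD close to that of Mir183.

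For ratios between the libraries, library sizes were adjusted with edgeR's trimmed mean of M-values (TMM), which centres the bulk of genes on no difference. After scaling, Mir96 was 6.80-fold higher in replicate 2, a log2 ratio of 2.77 (95% interval 2.66 to 2.87). Mir182 was 6.52-fold higher, a log2 ratio of 2.71 (95% interval 2.66 to 2.75). Mir183 was 5.20-fold higher, a log2 ratio of 2.38 (95% interval 2.31 to 2.45). The summed cluster was 6.16-fold higher, a log2 ratio of 2.62 (95% interval 2.59 to 2.66). With 1 library per dam these ratios compare the libraries and have no replicate check.

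All 3 cluster genes lay past 4-fold, where 3.61% of the 360 genes with at least 10 counts in a library did so. This share includes genes that passed the filter only through replicate 2, where they were high. Examples are Mir3547, with 0 and 23 counts, and Mir511, with 0 and 13. Among the 282 genes with at least 100 counts summed over both libraries, 7 were past 4-fold, the cluster genes included. At 2-fold or more, 7.78% of the 360 genes were higher in replicate 2 and 4.44% higher in replicate 1, which is 28 genes against 16. With scaling by total counts, which shifted all log2 ratios by 0.21 toward replicate 2, the split was 42 against 11. The median log2 ratio of the 360 genes was 0.02, or 0.23 with scaling by total counts, and the median absolute log2 ratio was 0.29. By ratio Mir96, Mir182 and Mir183 took places 6, 7 and 8 of the 360. Among the 76 other genes with a mean CPM at or above that of Mir96, the highest log2 ratio was 1.76, for Mir143.

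**Figure D2:**
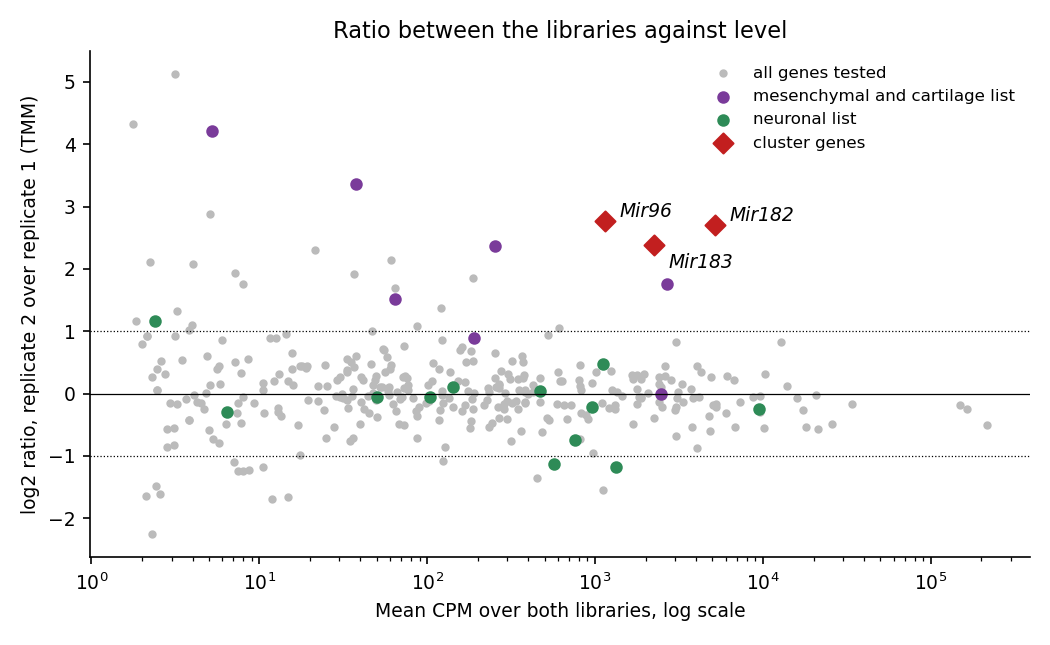
log2 ratio of replicate 2 over replicate 1 after TMM scaling (vertical axis) against mean CPM (log axis) for the 360 genes tested, with dotted lines at 2-fold. The cluster genes (diamonds) lie at log2 ratios of 2.38 to 2.77, and no other gene at or above the mean level of Mir96 passed 1.76. Mesenchymal and neuronal list members are coloured.

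Ratios within the cluster do not depend on how the libraries are scaled. Mir182 made up 57.5% of the cluster's counts in replicate 1 (95% interval 56.3 to 58.6) and 60.9% in replicate 2 (95% interval 60.4 to 61.3). Mir183 made up 30.3% (95% interval 29.2 to 31.4) and 25.6% (95% interval 25.3 to 26.0). Mir96 made up 12.2% (95% interval 11.4 to 13.0) and 13.5% (95% interval 13.2 to 13.8). The largest difference in composition, replicate 2 minus replicate 1, was -4.69 percentage points for Mir183, while the summed level differed 6.16-fold.

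**Figure D3:**
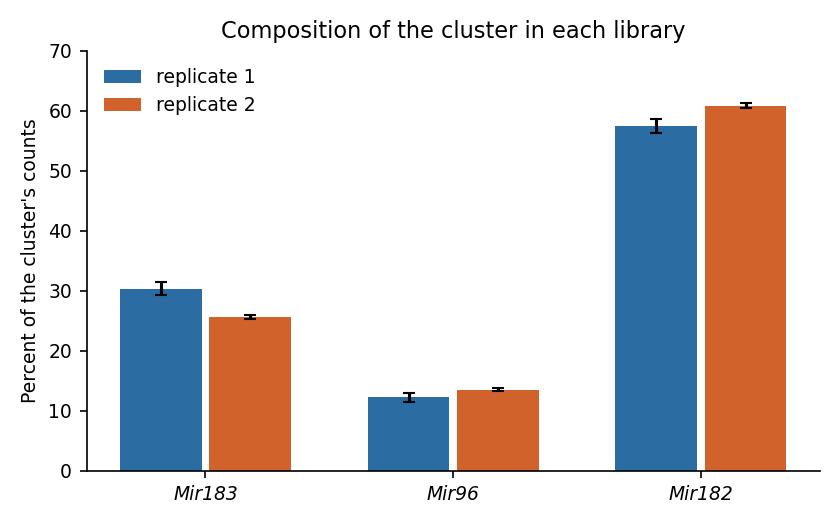
Percent of the cluster's summed counts held by each gene (vertical axis) in replicate 1 and replicate 2, with exact 95% intervals. The share of Mir183 was lower in replicate 2, at 25.6% against 30.3%, and the shares of Mir182 and Mir96 were higher.

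Pair by pair, Mir182 and Mir96 kept their ratio within counting error. There were 4.71 counts of Mir182 per count of Mir96 in replicate 1 (95% interval 4.36 to 5.08) and 4.51 in replicate 2 (95% interval 4.40 to 4.62). The second ratio was 0.958 times the first (exact conditional 95% interval 0.884 to 1.04), an interval that includes no difference. Mir183 departed from both. The ratio of Mir182 to Mir183 was 1.89 in replicate 1 (95% interval 1.79 to 2.00) and 2.37 in replicate 2 (95% interval 2.33 to 2.42), a 1.25-fold difference (exact conditional 95% interval 1.18 to 1.33). The ratio of Mir183 to Mir96 was 2.48 in replicate 1 (95% interval 2.29 to 2.70) and 1.90 in replicate 2 (95% interval 1.85 to 1.95), or 0.765 times as high (exact conditional 95% interval 0.701 to 0.834). The hairpins of Mir183 and Mir96, 116 bases apart, thus differed more in their ratio than those of Mir96 and Mir182, 3453 bases apart. These intervals hold no spread between litters.

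Other miRNA clusters give a measure of how closely genes of a shared locus move together. Clusters were runs of miRNA genes on the same strand with gaps of at most 10 kb, kept when at least 3 genes had 100 counts or more summed over the libraries. There were 11, the sensory cluster included. Its genes spanned 0.39 on the log2 ratio scale. The spans of the other 10 went from 0.04, for Mir302b to Mir302d of the pluripotency-associated cluster, to 1.07, for Mir379 to Mir3072 of the imprinted Dlk1-Dio3 locus, with a median of 0.67. Counted from the smallest span, the sensory cluster took place 3 of 11, and place 4 of 14 with gaps of at most 50 kb. Clusters with more genes have more room to spread, and the other 3 clusters with 3 genes had a median span of 0.24. That median depended on the gap allowed. It was 0.54 over 4 such clusters with gaps of at most 5 kb and 0.49 over 6 with at most 50 kb. The span of the sensory cluster, 0.39 in each case, thus lay above the first of these medians and below the others. The median log2 ratio of the sensory cluster, 2.71, was the highest of the 11. The others went from -0.31, for the Mir669e to Mir669o cluster, to 0.96, for the X-linked cluster of Mir450b to Mir322. The highest mean CPM among the sensory genes was 4.53 times the lowest. The same ratio was 1.80, 13.2 and 72.7 in the other 3 clusters with 3 genes. Over all 10 others its median was 59.0, or 34.8 with gaps of at most 5 kb. Reads at several positions entered no count, which can lower genes that have copies elsewhere. How far this sets the ratios of the other clusters was not tested.

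**Figure D4:**
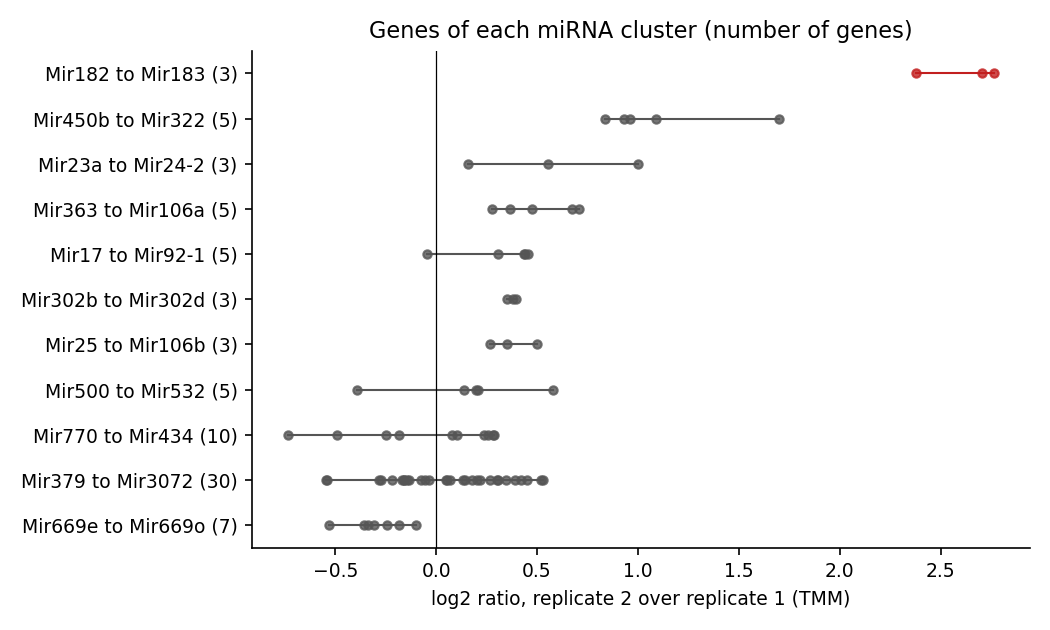
log2 ratio of replicate 2 over replicate 1 (horizontal axis) for each gene (point) of the 11 miRNA clusters, with lines from the lowest to the highest gene and gene numbers in parentheses. The genes of the sensory cluster (top) sit between 2.38 and 2.77, to the right of every gene of the other clusters, the highest of which is at 1.70.

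Few genes outside the cluster had a ratio like that of its members. Likeness was taken as the distance of a log2 ratio from the cluster's median of 2.71, over the 282 genes with at least 100 counts summed. With only 2 libraries this rests on a single ratio per gene. The 5 nearest were Mir214, Mir574, Mir223, Mir199b and Mir152. Mir214, a mesenchymal miRNA gene, had 230 counts in the first library and 1591 in the second, a 5.15-fold difference. Mir574 had 20 and 135 counts, 4.93-fold higher. Mir223, the myeloid miRNA gene, had 63 and 375 counts, 4.41-fold higher. Mir199b, another mesenchymal gene, had 18 and 254 counts, 10.3-fold higher, and Mir152 had 43 and 221 counts, 3.80-fold higher. All 5 were far less abundant than the cluster. In replicate 2 the highest of them, Mir214, stood at 433 CPM against 2032 CPM for Mir96. Of the 282 genes, 7 were at least 4-fold higher in replicate 2, and these were the 3 cluster genes, Mir199b, Mir214, Mir574 and Mir223.

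Marker lists of other cell types were set beside the cluster. The mesenchymal and cartilage list had the highest median ratio of them. Its 8 members summed to 3623 and 7821 CPM in replicates 1 and 2, none was at 0 in both libraries, and 5 of the 7 tested were at least 2-fold higher in replicate 2 (6 with scaling by total counts), beside the 7.78% of all genes. Its median log2 ratio was 1.76. Mir143, the smooth muscle and fibroblast miRNA gene, had 3454 and 15727 counts. Mir145a from the same locus had 94 and 361, and Mir199a-2 had 1 and 37. Mir199a-2 passed the filter only through replicate 2, so its place among the 5 was set by its count there. The list was chosen with earlier results of these data known, so the 5 of 7 is a description only. Mir140, the cartilage miRNA gene, had 7312 and 9790 counts, a log2 ratio of 0.00, and was the list's most abundant member in replicate 1. The endothelial gene Mir126a stood at 8443 and 17271 CPM, 1.77-fold higher after scaling. In the leukocyte list, with sums of 125 and 232 CPM and a median log2 ratio of 0.10, Mir223 was the 1 member of 3 past 2-fold. The part of mesenchymal, vascular or blood cells in the cluster's difference was not tested.

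Lists of neural cells had medians below 0 after TMM scaling, against 0.02 for all genes tested. Counts of their members past 2-fold stand beside 7.78% of all genes tested toward replicate 2 and 4.44% toward replicate 1. The neuronal list summed to 15510 and 14408 CPM in replicates 1 and 2, with a median log2 ratio of -0.14. Mir137, its most abundant gene, had 30433 and 34225 counts. Of its 12 tested members, Mir124a-2, with 4 and 13 counts, was past 2-fold toward replicate 2, the only library in which it passed the filter. Mir128-1, with 5554 and 3291 counts, and Mir128-2, with 2370 and 1453, were past it toward replicate 1, though not with scaling by total counts. These have gene copies, so their counts rest on reads at a single position. The neural progenitor list, led by Mir135b, had a median of -0.21 with 0 of 5 past 2-fold. The oligodendrocyte list, led by Mir219a-2, had one of -0.15 with 0 of 3. Its log2 ratios went from -0.40, for Mir219a-2, to 0.65, for Mir338 with 568 and 1197 counts. The motor neuron genes Mir218-1 and Mir218-2 had log2 ratios of -0.25 and 0.01. The axial Hox list, led by Mir10b, had a median of -0.68, and 1 of 6 was past 2-fold toward replicate 1, Mir196a-2 at 5042 and 2316 counts. With scaling by total counts the medians of the neuronal, oligodendrocyte and motor neuron lists turned to 0.07, 0.06 and 0.09, against 0.23 for all genes.

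The eye list summed to 315 and 329 CPM and rested on Mir204, a miRNA gene of the pigment epithelium and choroid plexus, with 997 and 1203 counts and a log2 ratio of -0.15 (0.06 with scaling by total counts). Its other members, Mir211 (3 and 2 counts) and Mir184 (0 and 2), were near 0. The epithelial list summed to 407 and 508 CPM, nearly all from Mir203 with 1185 and 1741 counts, and had a median of -0.23. Mir200c, with 34 and 19 counts, was the 1 of its 5 tested members past 2-fold, toward replicate 1, where 4.44% of all genes tested were. The endocrine list, led by Mir7b, had a median of -0.46 with 0 of 4 past 2-fold. In the erythroid list, led by Mir451a, the median was 0.24, and Mir486, with 56 and 23 counts, was past 2-fold toward replicate 1. The muscle list had 1 tested member, Mir206, at a log2 ratio of 0.01, and its members Mir133a-1 and Mir133a-2 were at 0 counts in both libraries.

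**Figure D5:**
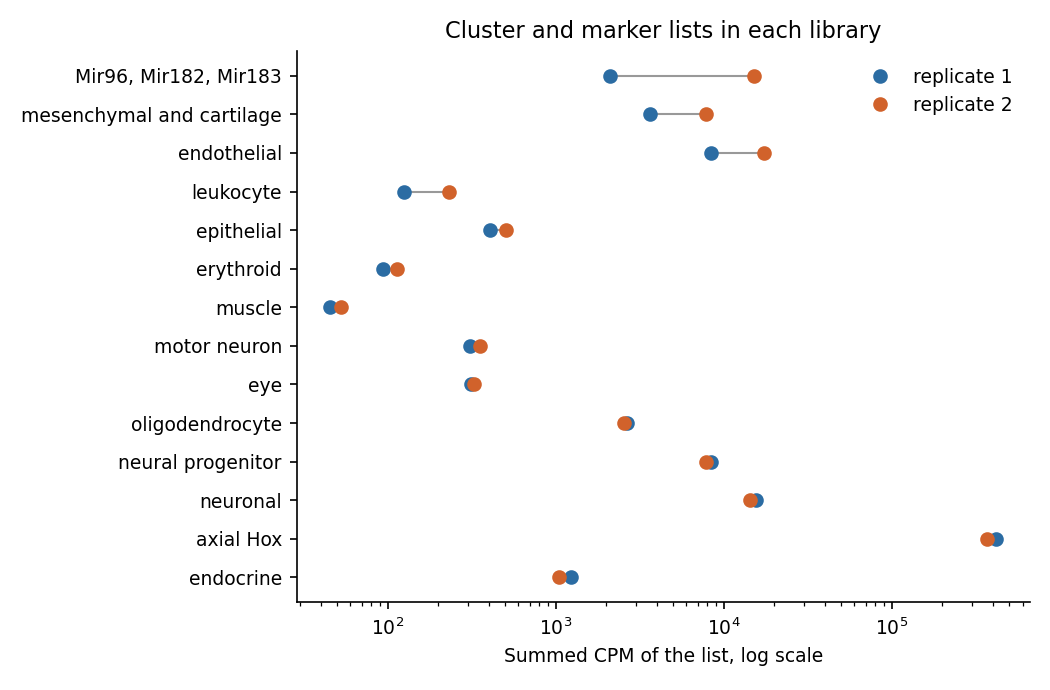
Summed CPM (log axis) of the cluster genes and of each marker list in replicate 1 and replicate 2, ordered by the ratio of the sums. The cluster (top) went from 2109 to 15050 CPM, and the mesenchymal and cartilage list, next in order, from 3623 to 7821 CPM.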

How the data were processed

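The deposited files were raw read counts per miRNA gene, 1 table per library, in 3 strand columns. The authors aligned to mm10 and used annotation M4, per the deposited text notes. No aligner, trimming or filter is given in the sources used here. The columns have no header, and column 3, taken as the sense strand because it held nearly all counts on genes, was used. The 4 rows that name no gene (46.6% of reads in replicate 1 and 48.1% in replicate 2) stayed out of totals. Symbols and positions came from GENCODE M21 on GRCm38, the assembly called mm10, and 1894 of 1973 identifiers matched. Sequences came from RefSeq, and 3 of 3 cluster genes matched.

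Genes with at least 10 counts in a library (360) were scaled by TMM in edgeR 4.0.16 under R 4.3.3. Each ratio puts replicate 2 over replicate 1 after adding 0.5 counts, and called means past the stated fold. With 1 library per dam no quasi-likelihood test could be fitted, and no p-value is given. Size factors of DESeq2 1.42.0 were an alternative. Intervals used scipy 1.17.1, with numpy 2.4.6, pandas 2.3.3, matplotlib 3.10.9 and Python 3.11.15. The ratio procedure was tested on simulated data.

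The members, the 13 marker lists and the rule for named genes were chosen with earlier results of these data known. Named were the cluster genes, the 5 nearest in ratio, genes past 4-fold with 100 summed counts, neighbours in level, each list's leading member and members past 2-fold, and genes sharing a seed. Further list members and cluster ends were named after their values were seen. Mir9-1, Mir142 and Mir1a-2 were not analysed here.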

Additional observations from a re-analysis of the deposited data

Results flagged for a closer look

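The other-strand column, which enters no comparison above, held a few reads at the cluster. Mir182 had 5 other-strand counts in replicate 1 and Mir183 had 5 in replicate 2, each above the 3 counts that a count of 0 allows. They made up 0.130% of the Mir182 reads and 0.0353% of the Mir183 reads of those libraries, where the column held 1.26% and 1.49% of the counts on all miRNA genes. Mir96 had 0 in both libraries.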

How the results depend on the processing

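Each cluster gene stayed higher in replicate 2 under every scaling, filter and strand column tried. With scaling by total counts the log2 ratios were 2.59 for Mir183, 2.98 for Mir96 and 2.92 for Mir182, and under the 5 other alternatives they lay within the counting intervals of the reported values. Leaving the 3 highest genes out of the denominator gave means of 4618 CPM for Mir183, 2344 for Mir96 and 10621 for Mir182, and a denominator of all reads of the table gave 1172, 596 and 2701. The number of genes at least 2-fold higher in replicate 2 was 136 without a filter and 16 with a filter of 100 counts, against 28, and that at least 4-fold higher was 28 and 7, against 13. These filters tested 678 and 265 genes. With scaling by total counts 0 neuronal genes were past 2-fold toward replicate 1 and 1 endothelial gene toward replicate 2, and with DESeq2 size factors 2 Hox genes toward replicate 1. The list counts under other scalings, the per-base order and the either-strand ratios were added after the data were seen. The median span of other clusters was 0.52 with gaps of 5 kb and 0.68 with 50 kb. Without replicate 1 or without replicate 2, a mean is the other library's value, as given above. No paired analysis was possible because the samples form a single group. Replicate spread rests on 2 libraries, and depth allows no claim below 0.946 CPM in replicate 1.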
